A study of Mus musculus with 17 samples.

Results

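The comparison described here set 2 arrays of common myeloid progenitors sorted as positive for the surface receptor Flt3 (flt3+ CMP) against 2 arrays of those sorted as negative (flt3- CMP), 4 of the 17 arrays of a study of 9 sorted mouse populations. The arrays were chosen by their labels, and not by any measured value. Both CMP populations came from bone marrow, as did the arrays of stem cells (HSC), of multipotent progenitors primed for the lymphoid lineage (LMPP) and of common lymphoid progenitors (CLP), which serve here for levels only, apart from 1 comparison with LMPP. Per the labels, donor marrow carried a TCF-1 GFP reporter, recipients were CD45.1 B6 mice that had been lethally irradiated with 900 rads, and the cells of several chimeras were pooled after 12 weeks of reconstitution. All groups share that background, so none is an unmanipulated mouse, and no source used here gives the sort markers of CMP other than Flt3. The replicates are 2 arrays of each pool type, and the labels do not say that these came from different mice. Each p-value and SE rests on the spread between replicate arrays pooled over the populations of all 17 arrays. It does not measure the spread of the 4 CMP arrays alone. That pooled spread may be technical.

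Common myeloid progenitors give rise to megakaryocytes and red cells on one side and to granulocytes and monocytes on the other. Flt3 is a receptor tyrosine kinase that is found on progenitors with lymphoid and granulocyte-monocyte potential and is lost from those that go on to the megakaryocyte and erythroid lineages. Lymphoid priming is the low transcription of lymphoid genes, such as those of antigen receptor rearrangement and of the interleukin 7 receptor, in progenitors that are not yet committed. In erythroid progenitors, Gata1, Klf1 and Tal1 encode the factors that drive the genes of heme synthesis, of carbonic anhydrases and of the red cell membrane.

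Expression is given as the deposited log2 value of a gene on an array, so that a difference of 1 is a 2-fold change. Of 41345 probe sets, those with 1 gene symbol were kept, and the probe set with the highest mean stood for its gene, which left 22180 genes. The medians of the 4 CMP arrays lay between 4.51 and 4.54, and the median of all values was 4.54. Where 1 side of a difference lies below that median the size of the difference is uncertain. Across genes, which are no independent replicates, Pearson's r was 0.986 between the flt3+ CMP arrays, 0.990 between the flt3- CMP arrays and 0.983 between the populations. By this measure the 2 populations were nearly as alike as replicate arrays. It rests mostly on the differences in level between genes, so it shows little of how single genes differ. Flt3+ CMP correlated at 0.980 with LMPP and 0.975 with HSC, and flt3- CMP at 0.973 and 0.972.

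Flt3 itself was at 8.97 and 9.66 in flt3+ CMP and at 8.31 and 8.38 in flt3- CMP. The groups did not overlap, in the order of the sort labels, but the difference of 0.97 ± 0.35 (SE, n = 2 against 2) did not pass the test (adjusted p = 0.36). The probe sets therefore left a sizeable Flt3 signal in the population sorted as negative. Kit, the stem cell factor receptor by which marrow progenitors are sorted, was at 8.55 and 8.64 in flt3+ CMP and at 8.80 and 8.70 in flt3- CMP. Cd34, another progenitor surface marker, was at 9.95 and 10.39 against 10.50 and 10.62. Fcgr3, an Fc receptor used to part CMP from granulocyte-monocyte progenitors, was at 5.64 and 5.68 against 6.30 and 6.23, a difference of -0.60 that did not pass the test. Ly6a, which encodes Sca-1, was not analysed here.

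Of 22180 genes, 24 differed between the CMP populations, 10 higher and 14 lower in flt3+ CMP, which is 0.108% of the genes tested. Those higher were 0.0451% and those lower 0.0631% of all genes. Calls were made where the p of a limma fit to all 17 arrays, adjusted after Benjamini and Hochberg, was under 0.05. Of the 24, 20 differed at least 2-fold, and 2065 genes had an unadjusted p under 0.05, 663 higher and 1402 lower. The excess of lower genes depended on scaling, since 6 were higher and 3 lower with each array centred on its median, and 10 higher and 1 lower after quantile normalization. Without flt3+ CMP replicate 1 the count was 6, without flt3+ CMP replicate 2 it was 4, without flt3- CMP replicate 1 it was 2 and without flt3- CMP replicate 2 it was 1. No call changed direction under any of the 14 alternatives tried, and all single calls but that of the gene 4930447C04Rik were lost under some of them.

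**Figure D1:**
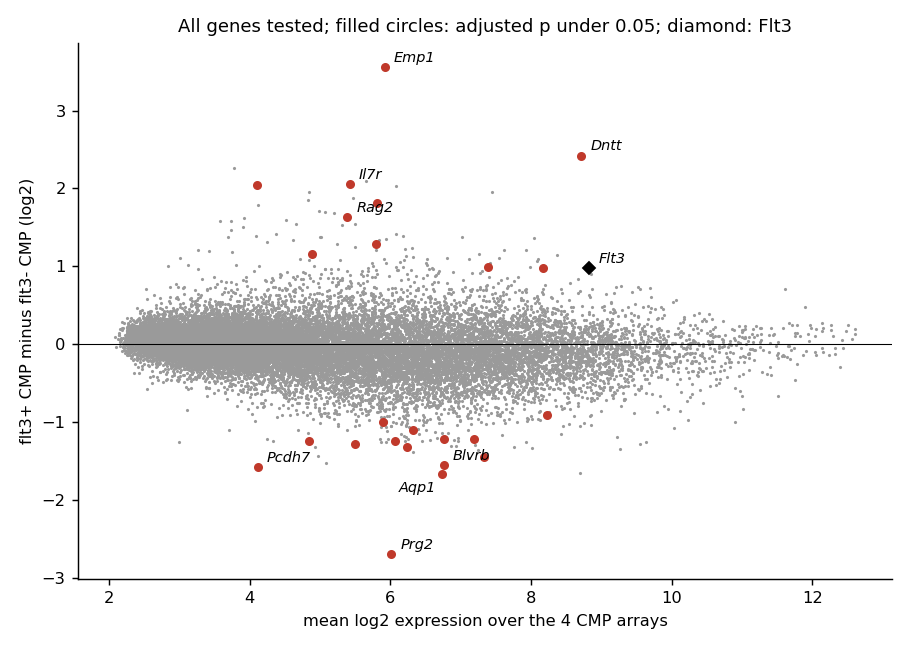
Difference of log2 means, flt3+ CMP minus flt3- CMP, against mean log2 expression over the 4 CMP arrays, 1 point for each of 22180 genes. Filled circles are the 24 genes called at an adjusted p under 0.05, and the diamond is Flt3, at 0.97, which was not called.

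Of the 10 genes higher in flt3+ CMP, 3 were genes of lymphoid priming. Dntt, Il7r and Rag2 rose, and they were 3 of 22 lymphoid priming genes measured, with 0 lower, against 0.0451% of all genes called higher. In 12 of the 22 the arrays did not overlap and were higher, and in 0 were they lower, against 18.6% and 24.9% of all genes. All lists were chosen with earlier results of these data known, so such counts are descriptions and no independent support. The median difference of the list was 0.27, against -0.02 over all genes, and 17 members had a positive difference. That median rested on few arrays, since it was 0.46 without flt3+ CMP replicate 1, 0.14 without flt3+ CMP replicate 2 and 0.43 without flt3- CMP replicate 1. Markers of mature B and plasma cells (7 of 13) and of mature T and NK cells (8 of 18) were also higher without overlap, at list medians of 4.02 to 4.49 on the 4 arrays, and their part in the lymphoid difference was not tested. In pooled populations, a smaller share of cells that transcribe a gene and less RNA per cell cannot be told apart.

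Dntt, the terminal transferase that adds nucleotides at antigen receptor junctions, was at 9.55 and 10.30 in flt3+ CMP and at 7.58 and 7.43 in flt3- CMP. Both flt3+ CMP arrays lay above both flt3- CMP arrays, and the difference was 2.42 ± 0.28 (SE, n = 2 against 2, adjusted p = 0.0080), or 5.35-fold. Il7r, the alpha chain of the interleukin 7 receptor, was at 6.27 and 6.63 against 4.40 and 4.40, a difference of 2.05 ± 0.28 (adjusted p = 0.023). Rag2, a subunit of the recombinase that cuts antigen receptor genes, was at 6.17 and 6.23 against 4.58 and 4.57, a difference of 1.63 ± 0.26 (adjusted p = 0.037). The call of Dntt held without flt3+ CMP replicate 1 (adjusted p = 0.0055) and was lost without flt3+ CMP replicate 2 (0.058), flt3- CMP replicate 1 (0.054) or flt3- CMP replicate 2 (0.13), while those of Il7r and Rag2 were lost without any 1 of the 4 arrays, at differences of 1.87 to 2.23 and 1.60 to 1.66. Il7r in flt3- CMP lay below the median of all values. Rag1, which encodes the partner of Rag2, was not analysed here. The start regions of the first 2 of these genes are shown, 250 bases before the RefSeq transcription start on GRCm38.p6, 5′ to 3′ on the gene's strand, because Dntt and Il7r are the leading lymphoid genes of the comparison. Capitals in Dntt (chr19:41029025-41029274, plus strand) mark AGATAA, which factors of the GATA family bind, 112 bases before the start, and those in Il7r (chr15:9529877-9530126, minus strand) mark AGGAAG, the core of many ETS factor sites, read on the opposite strand 48 bases before the start.
Dntt: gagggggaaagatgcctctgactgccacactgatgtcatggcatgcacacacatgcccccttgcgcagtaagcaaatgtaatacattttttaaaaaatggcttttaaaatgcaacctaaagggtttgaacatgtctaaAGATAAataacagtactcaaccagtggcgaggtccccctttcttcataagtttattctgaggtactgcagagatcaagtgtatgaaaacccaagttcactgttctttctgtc
Il7r: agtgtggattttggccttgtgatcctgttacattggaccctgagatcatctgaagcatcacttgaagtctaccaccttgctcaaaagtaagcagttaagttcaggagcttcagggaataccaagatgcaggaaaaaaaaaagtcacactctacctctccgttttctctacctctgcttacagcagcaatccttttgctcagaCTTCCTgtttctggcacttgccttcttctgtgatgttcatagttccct

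Of the other lymphoid priming genes none was called, and 5 had an unadjusted p under 0.05, all higher. Il12a, a subunit of interleukin 12, was at 8.07 and 8.42 in flt3+ CMP against 7.48 and 7.28 in flt3- CMP, a difference of 0.86 ± 0.29 (adjusted p = 0.34). Cnn3, an actin-binding protein, had a difference of 0.76, and Ighm, whose mu chain locus is transcribed before it is rearranged, one of 0.75. Satb1, a chromatin organiser that promotes lymphoid fates, was at 7.21 and 7.39 against 6.69 and 6.84, a difference of 0.54. The remaining one was Blnk, an adaptor of the pre-B cell receptor, with 0.56. Flt3+ CMP was thus the higher in each of these 5, with no overlap of arrays, but below the test's threshold. The arrays overlapped for the lymphoid transcription factor Ikzf1 (-0.01), the receptor Notch1 (-0.01), Lsp1 (-0.03) and Cd52 (0.04). Mef2c, a transcription factor that promotes lymphoid over myeloid fate, was at 9.16 and 10.10 against 9.09 and 9.19, so that its difference of 0.48 lay in 1 array.

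**Figure D2:**
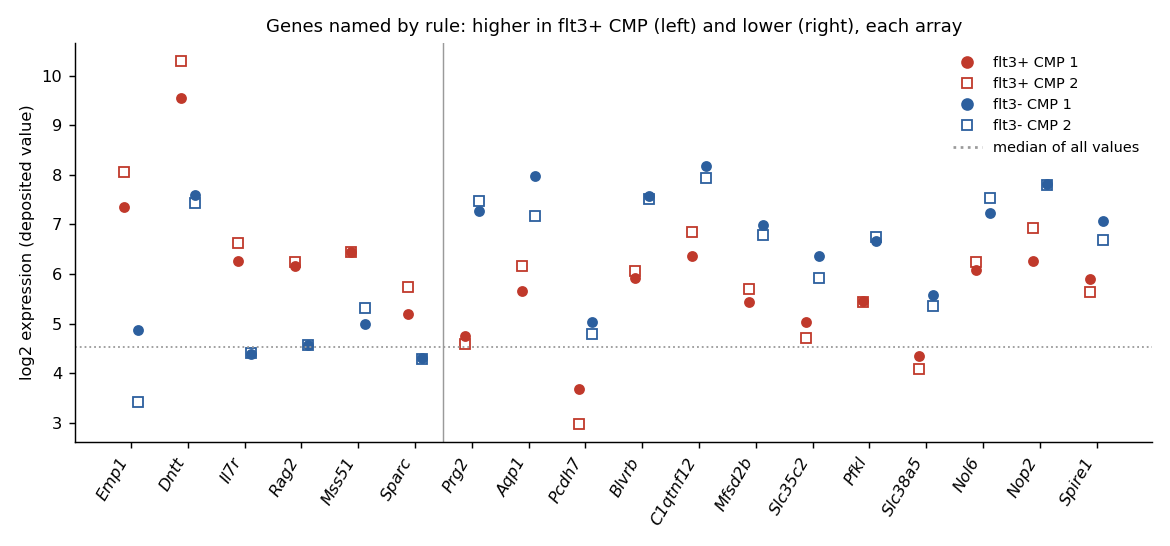
Log2 expression on each of the 4 CMP arrays for the 6 genes named as higher (left of the line) and the 12 named as lower (right) in flt3+ CMP, red for flt3+ CMP and blue for flt3- CMP. In each gene the red and blue arrays do not overlap, which the naming rule required, and the dotted line is the median of all values, 4.54.

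The lists of committed B and T lineage genes held 1 call between them. Of 15 early B lineage genes only Rag2, which is also on the priming list, was called, and the list's median was -0.05. Its direction changed with processing, to 0.043 after quantile normalization. Ebf1, the factor that starts the B lineage program, was at 3.97 and 4.06 in flt3+ CMP against 3.46 and 3.65 in flt3- CMP, and Pax5, which holds that program, at 4.83 and 4.62 against 4.89 and 4.40. Ebf1 lay below the median of all values on all 4 arrays, and it was at 7.30 in CLP. Of 17 early T lineage and Notch target genes limma called 0, and 0 had an unadjusted p under 0.05, with a median of -0.04. Cd3e, a chain of the T cell receptor complex, was at 3.42 and 3.40 against 3.81 and 3.34. Tox, a factor of T cell and innate lymphoid development, was the highest of the list at 0.51 (adjusted p = 0.58).

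No stem or multipotent progenitor gene was called. Of 20 measured limma called 0, while 1 was higher and 2 lower at an unadjusted p under 0.05. In 5 the flt3+ CMP arrays lay wholly above and in 7 wholly below, against 18.6% and 24.9% of all genes, 8 overlapped, and the median was -0.05. Hlf, a transcription factor of stem cells, was at 4.73 and 5.14 in flt3+ CMP against 5.24 and 4.73 in flt3- CMP. Meis1, a homeobox cofactor of Hox proteins, was at 7.66 and 7.82 against 7.86 and 7.72. In both genes the arrays overlapped. Hoxa9, a homeobox gene of early progenitors, was higher in flt3+ CMP at 6.23 and 5.88 against 5.48 and 5.42, without passing the test. The lowest difference on the list, -1.26, was that of Gfi1b, which is also an erythroid and megakaryocyte regulator.

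Of the 22 lists, that of erythroid regulators and receptors, called erythroid regulators here for short, had the median farthest from 0. It also holds genes that encode neither, such as the channel Aqp1, the enzymes Blvrb and Car2, the metallothionein Mt2 and the membrane protein Ermap. Its only called members are of that kind. How its median stands beside that of the heme and red cell membrane list thus depends on which list such genes were put in. Of 24 erythroid regulators and receptors, 23 had a negative difference, 2 fell, Aqp1 and Blvrb, and 0 rose, against 0.0631% and 0.0451% of all genes. In 22 of the 24 the flt3+ CMP arrays lay wholly below the flt3- CMP arrays, against 24.9% of all genes. This list too was chosen with earlier results of these data known, so its counts are no independent support. The median difference was -0.82, against -0.02 over all genes, with 15 members lower at an unadjusted p under 0.05 and 7 lower at least 2-fold. Without each array in turn the median lay between -0.95 and -0.73. Nearly all members were thus lower in flt3+ CMP, while single members mostly missed the threshold over all genes. Some members were also high in CLP, where Rhag, Hemgn, Ermap and Car1 had means of 8.22, 7.76, 7.59 and 11.13. In flt3- CMP these were at 7.95, 7.18, 7.85 and 11.43, and in flt3+ CMP at 7.08, 5.95, 6.39 and 10.60. In NK cells they were at 7.54, 6.85, 7.16 and 10.35, and in DN3 cells of the thymus at 4.27, 5.04, 3.67 and 4.41. Other members were lower in CLP than in flt3- CMP, such as Gata2 (4.66 against 6.11) and Tal1 (4.94 against 6.01). The part that RNA carried over from erythroid cells has in these levels was not tested.

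Aqp1, the water channel of the red cell membrane, was at 5.66 and 6.15 in flt3+ CMP and at 7.99 and 7.17 in flt3- CMP. Both flt3- CMP arrays were higher, and the difference was -1.67 ± 0.27 (SE, n = 2 against 2, adjusted p = 0.037). Blvrb, a biliverdin reductase of erythroid cells, was at 5.91 and 6.06 against 7.57 and 7.51, a difference of -1.55 ± 0.23 (adjusted p = 0.035). Both calls were lost after quantile normalization, with Aqp1 at -1.53 and Blvrb at -1.40. They were also lost without any 1 of the 4 arrays, at -2.08 to -1.26 and -1.63 to -1.48. The call of Aqp1, but not that of Blvrb, was lost with each array centred on its median (adjusted p = 0.059). The same held with only the bone marrow arrays (0.059) or only the arrays compared (0.13) in the fit. Of 14 alternatives, 3 kept the call of Aqp1 and 7 that of Blvrb.

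Of the erythroid transcription factors, Gfi1b, a repressor needed for red cells and platelets, was at 7.21 and 7.38 in flt3+ CMP against 8.68 and 8.43 in flt3- CMP (-1.26 ± 0.25, adjusted p = 0.11). Gata1, which encodes the master factor of the lineage, was at 5.32 and 5.0 against 6.35 and 5.73, a difference of -0.88. Gata2, which acts before Gata1, was at 5.25 and 5.25 against 6.18 and 6.04, one of -0.86. Zfpm1, the GATA1 partner FOG1, differed by -0.81, Klf1 by -0.62 and Tal1 by -0.50. All 6 were lower in flt3+ CMP with no overlap, and none passed the test. Hemgn, an erythroid nuclear protein, was at 6.06 and 5.85 against 7.37 and 6.99, a difference of -1.23 (adjusted p = 0.12), and with only the bone marrow arrays in the fit it was called (adjusted p = 0.043). Its start region is shown with that of Pklr, the pyruvate kinase of liver and red cells, which was called at -1.0 (adjusted p = 0.037) but differed just less than 2-fold and so lies outside the naming rule. They were chosen after their values were seen, to show a GATA factor motif close to the start of an erythroid gene. Capitals mark TGATAA in Hemgn (chr4:46404184-46404433, minus strand), 13 bases before the start, and AGATAA in Pklr (chr3:89135892-89136141, plus strand), 35 bases before it.
Hemgn: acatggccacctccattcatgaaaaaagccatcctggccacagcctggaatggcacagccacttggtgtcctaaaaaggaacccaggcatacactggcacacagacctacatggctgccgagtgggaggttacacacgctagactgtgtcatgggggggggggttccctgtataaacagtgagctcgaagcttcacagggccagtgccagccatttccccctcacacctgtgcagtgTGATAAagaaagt
Pklr: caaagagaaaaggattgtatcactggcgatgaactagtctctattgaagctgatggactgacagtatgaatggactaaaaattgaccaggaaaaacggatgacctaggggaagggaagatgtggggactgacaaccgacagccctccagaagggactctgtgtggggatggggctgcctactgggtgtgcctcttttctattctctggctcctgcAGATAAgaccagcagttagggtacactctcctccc

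Among receptors and enzymes, Epor, the erythropoietin receptor, was at 5.68 and 5.32 in flt3+ CMP against 6.62 and 5.91 in flt3- CMP. Car2, a carbonic anhydrase, was at 9.25 and 9.74 against 10.68 and 10.45 (-1.07 ± 0.22, adjusted p = 0.11), and Car1, another, at 10.60 and 10.61 against 11.49 and 11.38 (-0.83). Ermap, an erythroid membrane protein, had a difference of -1.46 and Mt2, a metallothionein, one of -1.28. These also lay lower in flt3+ CMP on every array, below the threshold of the test, and both Ermap and Mt2 were called (adjusted p = 0.043 each) with only the bone marrow arrays in the fit. Tfrc, the transferrin receptor, which all dividing cells use, differed by -0.22. Cnrip1 was the exception to the direction of the list, at 5.17 and 5.18 against 5.11 and 5.22.

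Among genes of heme synthesis and of the red cell membrane, 14 of 25 could be measured, and the globin genes and Alas2 were not analysed here. Limma called 0 of the 14, and 3 were lower and 0 higher at an unadjusted p under 0.05. In 7 the flt3+ CMP arrays lay below and in 1 above, against 24.9% and 18.6% of all genes, and the median was -0.13. With a gene's probe sets averaged it was -0.26, and it lay between -0.26 and -0.21 when each array was left out in turn. It was -0.05 after quantile normalization and -0.11 with each array centred on its median. Cpox, an enzyme of heme synthesis, was at 6.48 and 6.63 against 7.69 and 7.62, a difference of -1.10 ± 0.24 (adjusted p = 0.12). Alad, which acts earlier in the same pathway, was at 7.02 and 7.27 against 7.84 and 8.20, one of -0.87. Sptb, the red cell spectrin beta chain, differed by -0.86. The enzymes Ppox (-0.02) and Uros (-0.03) and the ankyrin Ank1 (-0.04) had overlapping arrays, so the lower values lay in some members.

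The median of megakaryocyte and platelet genes lay closer to that of all genes than the erythroid one. Of 25 measured limma called 0, 3 were lower and 0 higher at an unadjusted p under 0.05, 8 did not overlap and were lower, 3 did not overlap and were higher, and the median was -0.15. Over all genes 24.9% were lower and 18.6% higher without overlap, so the lower count of this list was near that of all genes. The median was -0.03 without flt3+ CMP replicate 2 and -0.27 without flt3- CMP replicate 2. Gp5, a platelet membrane glycoprotein, was at 4.97 and 4.77 in flt3+ CMP against 5.70 and 5.67 in flt3- CMP, a difference of -0.81 ± 0.31 (adjusted p = 0.41). Pf4, platelet factor 4, was at 5.28 and 5.17 against 5.62 and 6.25, one of -0.71, with the flt3- CMP arrays apart from each other. Itga2b, the integrin CD41 of megakaryocytes, differed by -0.44. F2rl2, a thrombin receptor, went the other way, at 7.41 and 6.90 against 6.71 and 6.30.

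**Figure D3:**
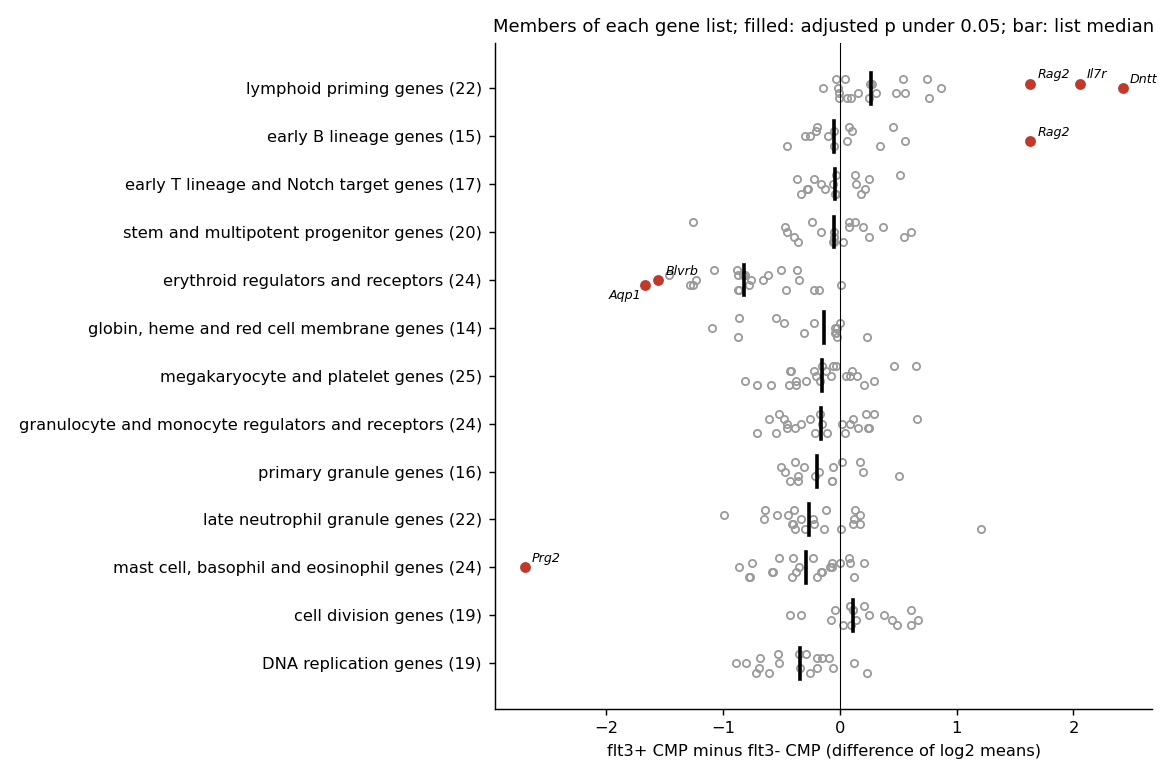
Difference of log2 means, flt3+ CMP minus flt3- CMP, for each measured member of 13 gene lists, with the number measured in brackets and a black bar at the list's median. Filled points passed the test over all genes, and the erythroid regulators have the lowest median, at -0.82, and the lymphoid priming genes the highest, at 0.27.

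Granulocyte and monocyte regulators were not called in either direction. Of 24 measured, 0 passed, with 1 higher and 3 lower at an unadjusted p under 0.05, 3 were higher and 9 lower without overlap (18.6% and 24.9% of all genes), and the median was -0.16, which was -0.03 without flt3+ CMP replicate 1 and -0.10 without flt3- CMP replicate 2. Irf8, the factor of monocyte and dendritic cell fate, was at 9.68 and 9.34 in flt3+ CMP against 9.09 and 8.62 in flt3- CMP, a difference of 0.66 ± 0.30 (adjusted p = 0.53). Cebpa, a factor needed for granulocyte-monocyte progenitors, was at 5.56 and 5.90 against 5.85 and 6.56, with overlap. Spi1, which encodes PU.1, was at 7.31 and 7.12 against 7.46 and 7.49. The receptor for granulocyte colony-stimulating factor (Csf3r, 0.16) and a chain of that for granulocyte-macrophage colony-stimulating factor (Csf2ra, 0.11) differed little. Csf2rb, the other chain of the latter receptor, was lower in flt3+ CMP without overlap, with a difference of -0.52 (adjusted p = 0.53). Csf2rb2, a separate beta chain gene, differed by -0.71 (adjusted p = 0.33).

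The genes of primary granules, the first to form in granulocyte precursors, were not called in either direction, though most had a negative difference (12 of 16). Of the 16 measured limma called 0, with 1 higher and 1 lower at an unadjusted p under 0.05. In 9 the flt3+ CMP arrays lay wholly below the flt3- CMP arrays and in 2 above, against 24.9% and 18.6% of all genes. The median was -0.19, within -0.30 and -0.11 when each array was left out in turn, and -0.08 after quantile normalization. Mpo, myeloperoxidase, was at 11.11 and 11.22 in flt3+ CMP against 11.66 and 11.44 in flt3- CMP. Elane, neutrophil elastase, was at 9.67 and 9.51 against 9.97 and 10.06, and Ctsg, cathepsin G, at 10.89 and 11.07 against 10.88 and 11.04. Mpo and Elane were lower in flt3+ CMP without overlap, with differences of -0.39 and -0.43, and neither passed the test. The late granule genes of maturing neutrophils, which mark cells outside a progenitor sort, also had 0 of 22 called (3 lower at an unadjusted p under 0.05), with 9 lower and 3 higher without overlap and a median of -0.27. S100a8, a calcium-binding protein of neutrophils, was at 12.10 and 12.10 against 11.95 and 12.02, and Ltf, lactoferrin, at 8.18 and 8.66 against 8.73 and 8.99. Both populations thus carried these transcripts, and the part that neutrophil RNA has in any other difference was not tested.

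Prg2, the major basic protein of eosinophil granules, had the largest fall of the called genes. It was at 4.75 and 4.58 in flt3+ CMP and at 7.26 and 7.47 in flt3- CMP, a difference of -2.70 ± 0.34 (SE, n = 2 against 2, adjusted p = 0.015), or 6.50-fold. The call was lost without any 1 of the 4 arrays, at -2.80 to -2.60. The population means were 7.70 in HSC, 8.35 in LMPP and 10.01 in CLP, so that among these 5 marrow populations flt3+ CMP was the low one. Prg2 was 1 of 24 mast cell, basophil and eosinophil genes, the only one called. The list had 13 members lower without overlap and 2 higher, against 24.9% and 18.6% of all genes, 7 lower at an unadjusted p under 0.05 and a median of -0.29. Of the other eosinophil granule genes, Epx, eosinophil peroxidase, was at 4.17 and 4.0 against 4.38 and 4.18, lower without overlap by a difference of -0.19 that did not pass the test, and all 4 values lay below the median of all values. Prg3 was at 4.74 and 4.60 against 4.50 and 4.68, with overlap. Cpa3, the mast cell carboxypeptidase, was at 10.21 and 9.92 against 10.82 and 10.81, a difference of -0.75, and Ms4a2, a chain of the IgE receptor, differed by -0.57.

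Outside the lists, Emp1, a small membrane protein of the tetraspan type, had the largest difference of the called genes. It was at 7.36 and 8.05 in flt3+ CMP and at 4.87 and 3.42 in flt3- CMP, higher by 3.56 ± 0.53 (SE, n = 2 against 2, adjusted p = 0.035), or 11.8-fold. The flt3- CMP arrays were far apart and 1 of them was below the median of all values, and with the probe sets of the gene averaged the difference was 1.99. Without any 1 of the 4 arrays the call was lost, at 2.83 to 4.28. Emp1 was at 9.21 in LMPP and 4.44 in HSC. Sparc, a secreted matrix-associated protein that is on the list of stroma markers, was at 5.19 and 5.74 against 4.31 and 4.29 (1.16 ± 0.18, adjusted p = 0.037). In flt3- CMP it lay below the median of all values. Mss51, known from muscle mitochondria, was at 6.45 and 6.44 against 4.99 and 5.32 (1.29). The other higher genes were G2e3, a ubiquitin ligase (0.98), Odf2l (1.00), 4930447C04Rik (2.05) and Gm5111 (1.82). The naming rule leaves out 4930447C04Rik and Gm5111 for their clone or predicted-gene names. 4930447C04Rik had the lowest adjusted p of all genes (0.00092). It was at 5.25 and 5.02 against 3.04 and 3.13, so flt3- CMP lay below the median of all values. Its means were 5.02 in LMPP, 5.74 in HSC and 2.50 in CLP.

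Among the other lower genes, 2 act in red cells, Mfsd2b, which exports sphingosine-1-phosphate from red cells and platelets (-1.32), and Pklr. Pfkl, the liver type of phosphofructokinase, was at 5.46 and 5.44 in flt3+ CMP against 6.66 and 6.74 in flt3- CMP (-1.25 ± 0.20, adjusted p = 0.037), and like Pklr it encodes an enzyme of glycolysis. Nol6 (-1.21), Nop2 (-1.21) and Mybbp1a (-0.90) encode nucleolar proteins, of which Nop2 methylates ribosomal RNA. Nop2 was at 6.26 and 6.92 against 7.82 and 7.79, and Nol6 at 6.09 and 6.24 against 7.22 and 7.53. The transporters Slc35c2, of the Golgi, and Slc38a5, of glutamine, were lower by the fit at -1.28 and -1.25. C1qtnf12, a secreted protein (-1.45), Pcdh7, a protocadherin (-1.58), and Spire1, which nucleates actin (-1.10), complete the called genes. Pcdh7 lay below the median of all values in flt3+ CMP, at 3.68 and 2.98, as did Slc38a5, at 4.34 and 4.09.

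The DNA replication list was mostly lower and the cell division list mostly higher in flt3+ CMP, without any call. Of 19 DNA replication genes 0 passed the test, 14 were lower without overlap and 1 higher (24.9% and 18.6% of all genes), 9 were lower at an unadjusted p under 0.05, and the median was -0.34. Mcm2, a subunit of the replicative helicase, was at 7.17 and 7.60 in flt3+ CMP against 8.19 and 8.02 in flt3- CMP. Uhrf1, which keeps DNA methylation through replication, was at 7.08 and 7.50 against 8.18 and 8.18, a difference of -0.89 (adjusted p = 0.14). Of 19 cell division genes 0 passed, 10 were higher without overlap and 2 lower (18.6% and 24.9% of all genes), 4 had an unadjusted p under 0.05, all higher, and the median was 0.12. Cenpf, a kinetochore protein, was at 8.29 and 8.71 against 7.61 and 8.05, a difference of 0.67 (adjusted p = 0.28).

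Among the markers of other cells 1 gene was called. With limma 0 of 15 macrophage markers were called, and 1 was lower at an unadjusted p under 0.05. Of 13 markers of mature B cells and plasma cells 0 were called (unadjusted, 1 in each direction), and of 18 markers of mature T and NK cells 0 (unadjusted, 2 higher). In 7 of the 13 B and plasma cell markers and 8 of the 18 T and NK cell markers the flt3+ CMP arrays lay wholly above, against 18.6% of all genes, and in 4 and 3 wholly below, against 24.9%. The medians of the macrophage, B and T cell lists lay between 0.01 and 0.11. The median levels of these lists on the 4 arrays were between 4.02 and 4.49, below the median of all values. Klrd1, the NK cell receptor subunit CD94, was at 6.19 and 5.48 in flt3+ CMP against 4.27 and 4.0 in flt3- CMP (1.70, adjusted p = 0.12), and Sdc1, the plasma cell marker syndecan 1, at 6.24 and 6.68 against 5.34 and 5.50 (1.04, adjusted p = 0.23). Of 18 stroma and endothelium markers Sparc was called, while the collagen gene Col1a1 was at 5.12 and 5.13 against 4.84 and 5.02 and the endothelial Cdh5 at 3.66 and 3.90 against 3.87 and 3.96. Of 22 monocyte and dendritic cell genes 0 were called (2 in each direction at an unadjusted p under 0.05), with H2-Aa, a class II antigen-presenting molecule, at 5.60 and 5.63 against 4.42 and 4.97. No interferon-stimulated gene of 16 (0, with 1 in each direction) and no immediate early or stress gene of 20 (0, with 1 lower) was called. Xist was at 11.29 to 11.53 on the 4 arrays, and the Y-linked gene Eif2s3y at 3.13 to 3.31.

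The comparison with LMPP sets the lymphoid genes of flt3+ CMP beside their level in lymphoid-primed progenitors. It shares the flt3+ CMP arrays with the first comparison, so the values are given side by side. Here 98 genes were called, 32 higher and 66 lower in flt3+ CMP, which is 0.144% and 0.298% of all genes. The count was 26 without flt3+ CMP replicate 1, 48 without flt3+ CMP replicate 2, 29 without LMPP replicate 1 and 55 without LMPP replicate 2. Of 22 lymphoid priming genes 0 were called, 1 was higher and 7 lower at an unadjusted p under 0.05, and the median difference was -0.38. In 21 of the 22 the mean was higher in LMPP than in flt3+ CMP, and in 16 the order was LMPP, then flt3+ CMP, then flt3- CMP. Dntt was at 10.56 and 10.83 in LMPP, above its level in flt3+ CMP by a difference of -0.77 that did not pass the test, and Il7r, at 6.65 and 6.76, differed by -0.25. For Dntt, Il7r and Rag2 the means in HSC were 6.41, 4.14 and 4.49, lower than in flt3+ CMP.

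Other programs set flt3+ CMP apart from LMPP. Of 20 stem and multipotent progenitor genes 3 fell, against 0.298% of all genes, Hlf by 2.42 ± 0.21 (SE, n = 2 against 2, adjusted p = 0.00025), Mecom, a zinc finger factor of stem cells, by 1.49 and Meis1 by 1.45 on the log2 scale. Hlf was at 7.31 and 7.41 in LMPP and at means of 4.94 in flt3+ CMP and 4.99 in flt3- CMP. Higher in flt3+ CMP than in LMPP were the granule genes Mpo (1.22 ± 0.23, adjusted p = 0.042) and Ctsg (1.83), the annexin Anxa3 (2.15), Cpa3 (2.91), Ms4a2 (1.61) and Car1 (1.24). Mpo was at 9.97 and 9.93 and Cpa3 at 7.66 and 6.65 in LMPP, below all 4 CMP arrays. Of 24 erythroid regulators Car1 was the only one called, and their median difference was 0.23, against -0.82 between the CMP populations. Of 22 late neutrophil granule genes 4 fell, Lcn2, Mmp8, Chil3 and Wfdc21, by 1.06 to 1.44, and the list's median was -0.94. Prg2 fell by 3.68 ± 0.34 (adjusted p = 0.00025). Of the interferon-stimulated genes, Rtp4 and Oasl2 fell by 1.73 and 1.57, with means of 6.36 and 5.75 in flt3- CMP beside 6.27 and 5.57 in flt3+ CMP.

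**Figure D4:**
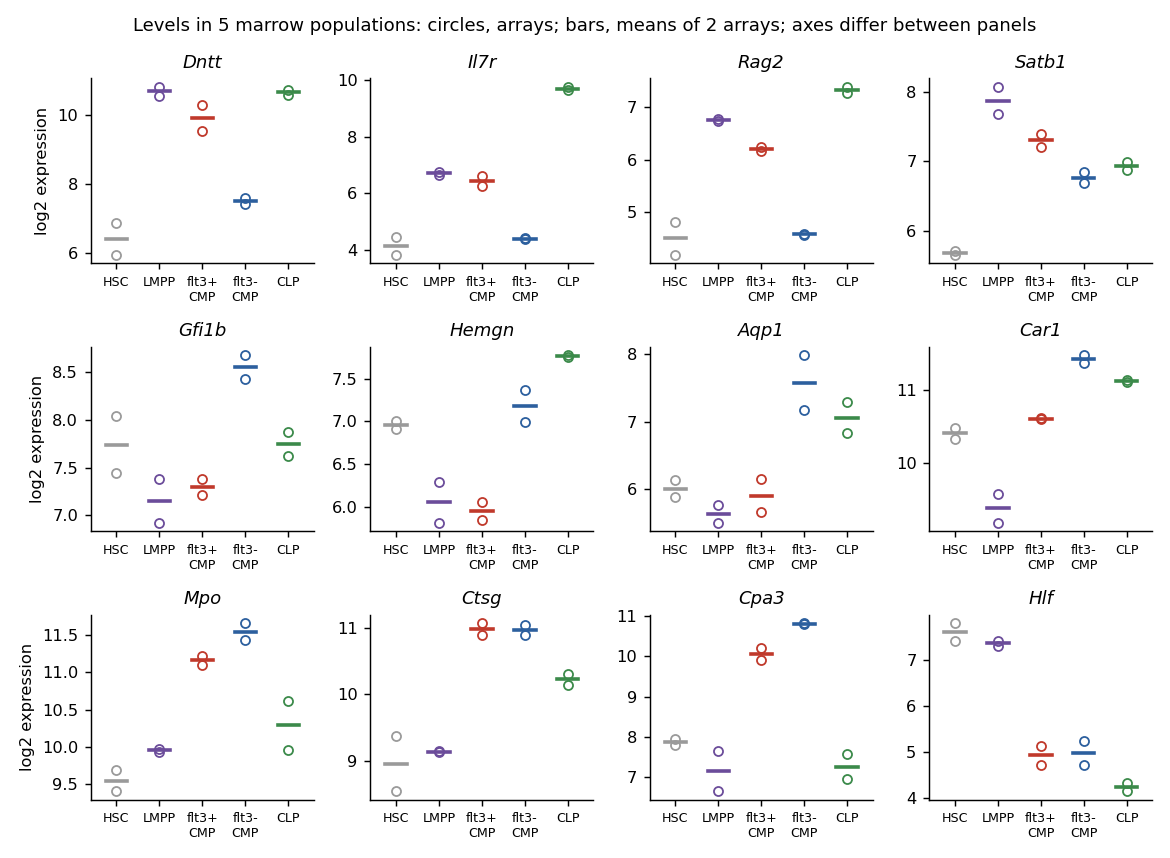
Log2 expression of 12 genes in 5 marrow populations, with a circle for each array and a bar for the mean of 2 arrays, each panel with its own axis. Dntt, Il7r and Rag2 are high in LMPP, flt3+ CMP and CLP and low in HSC and flt3- CMP, while Mpo and Cpa3 are high in both CMP populations and Hlf low in both and in CLP.

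The start regions of the lists were searched, on both strands, for AGATAA or TGATAA, known from factors of the GATA family, for CCACACCC or CCGCCC, known from KLF and Sp factors, and for AGGAAG, known from ETS factors such as PU.1, none of which contains another. Of all 32851 RefSeq windows of 250 bases, 16.6% held a GATA motif, 34.7% a KLF or Sp motif and 29.5% the ETS motif. For the erythroid regulators, 20 of 24 genes matched, with 27 windows, and 9 of these (33.3%) held a GATA motif and 17 (63%) a KLF or Sp motif. Gfi1b, Klf1, Tal1, Epor, Rhag and Ermap were among the genes with a GATA motif. For the lymphoid priming genes, 17 of 22 matched, with 25 windows, of which 3 (12%) held a GATA motif and 10 (40%) the ETS motif. Of the genes named as lower, 8 of 12 matched, and 7 of their 10 windows (70%) held a KLF or Sp motif, against 0 of 7 for the genes named as higher. A GATA motif was in 1 of those 10 windows (10%), below the share of all windows, and the windows of Hemgn and Pklr were shown because they hold one. These matches describe letters in the windows, not binding.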

How the data were processed

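Biotin-labelled RNA from 9 sorted mouse populations was hybridised to 17 arrays (Affymetrix Mouse Gene 2.0 ST) after amplification, per the labels. The values are log2 expression per probe set, deposited by the authors for 41345 probe sets and made with Affymetrix Expression Console, per the submitters' processing notes; no source used here gives its version or algorithm. The log2 unit was read from the values. Probe sets were named from the platform annotation: 23521 had 1 symbol, 1814 several and 16010 none, and only the first were used. For 1082 genes with more than 1 probe set the one with the highest mean was kept.

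Limma 3.58.1 (R 4.3.3) fitted 1 mean per population to the whole set of arrays, with lmFit followed by eBayes and with 8 residual degrees of freedom beside 5.33 of the prior, without a replicate block, and each comparison is a two-sided test adjusted over 22180 genes. The median SE was 0.20, and precision is limited by the number of arrays. On simulated data for flt3+ CMP against flt3- CMP (22180 genes), 73% of log2 changes of 1, 100% of 2 and 100% of 3 were recovered, with 14 false calls. The simulation held 100 changed genes of each size, with independent normal noise, while 24 genes were called in the data. The 14 false calls stand beside the recovered changes of all sizes, so they do not estimate how many of the 24 are false. The adjusted threshold is stricter where fewer genes change, so recovery in the data may be lower. Ermap, at -1.46, was not called. The members and the 22 gene lists (373 of 407 names measured) were chosen with earlier results of these data known. Named genes were up to 14 in each direction, called, at least 2-fold and without overlap, leaving out genes with clone or predicted-gene names, and list members. Alternatives were scaling, dim genes, probe sets, arrays in the fit, an intensity trend, replicate blocks and leaving out each array. The labels do not pair samples by number, and over all genes same-numbered arrays did not deviate together. The numbers were therefore not taken to pair samples, though a shared batch acting on some genes was not excluded.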

Additional observations from a re-analysis of the deposited data

How the results depend on the processing

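Against 24 genes called between the CMP populations, 9 were called with each array centred on its median, 11 after quantile normalization, 1 with all probe sets, 7 with only the arrays compared, 6 with a replicate block over all populations and 1 to 6 when each array was left out in turn. Where 1 array was left for a population, it was assumed to vary like the others. With the replicate block for the 4 arrays alone 19 were called, and Rag2 and Aqp1 were at an adjusted p of 0.051. The correlation of same-numbered deviations was -0.01 for the CMP populations. Taken over all genes, it cannot show whether same-numbered arrays share a batch that acts on some genes. Other alternatives gave 22 to 25 calls, though not always of the same genes. With only the bone marrow arrays 14 of 23 calls were among the 24, and with the intensity trend 18 of 25. Of 336 repeats of the 24 calls 204 were lost and 0 changed sign. List members called, 7, were 0 by limma with all probe sets (58 unadjusted), 4 with only the arrays compared, 3 with the replicate block over all populations and 0 to 2 when each array was left out. Against 98 genes called between flt3+ CMP and LMPP, 60 were called with all probe sets, 18 with only the arrays compared and 26 to 55 when each array was left out. The median of erythroid regulators was -0.70 after quantile normalization and -0.95 to -0.73 when each array was left out. That of heme and red cell membrane genes was -0.05 after quantile normalization and -0.11 with each array centred on its median. It was -0.26 with probe sets averaged and -0.26 to -0.21 when each array was left out. The ranges were 0.14 to 0.46 for lymphoid priming genes and -0.18 to -0.032 for granulocyte and monocyte regulators. The median of early B lineage genes changed sign, to 0.043 after quantile normalization, 0.0065 without dim genes and -0.19 to 0.16 when each array was left out. The cause of these changes was not tested. With all probe sets the number of tests was larger, and some other alternatives had fewer arrays in the fit. Genes below the median of all values have a poorly measured size.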
